A study of Mus musculus with 13 samples.

Results

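The 10 genes described here were grouped as fatty acid synthesis genes: Acly, Acaca, Acacb, Fasn, Thrsp, Mlxipl, Me1, Elovl6, Scd1 and Scd2. Most take part in building fatty acids or switch on that pathway, while Acacb makes malonyl-CoA that restrains fatty acid oxidation. The 10 genes were taken by symbol from a table of read counts for 38279 mouse gene symbols, and all 10 were found in it. Compared were 6 mammary tumours that arose in Cre-positive mice and 4 whole glands of wild-type mice without Cre. Mating at 12 weeks of age was used to bring about excision of Fbxw7, a gene for a ubiquitin ligase subunit, in the Cre-positive mice, and the Cre-negative controls were mated at that age too. Tumours 1 to 6 were taken at 25, 32, 39, 19, 53 and 25 weeks of age, glands 1 to 3 at 20 weeks and gland 4 at 40 weeks. The labels name neither the promoter that drives Cre nor the floxed exons, and they leave unsaid whether any animal gave more than 1 library. The p-values therefore cover only the variation among these libraries, which may be technical in part. Tissue state and genotype differ together between the groups and cannot be told apart, while the ages of the groups overlap.

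Fat cells and secreting mammary epithelium both make fatty acids from glucose carbon. Citrate leaves the mitochondrion and is split to acetyl-CoA, which is carboxylated to malonyl-CoA and joined into palmitate, and NADPH pays for each reduction. Palmitate is then lengthened and desaturated before it enters triglyceride. In a mammary gland that is not lactating, fat cells of the stroma fill much of the tissue, while in lactation the alveolar epithelium makes milk fat.

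Promoter sequence of RefSeq (GRCm38.p6) was matched by symbol for 8 of the 10 genes, in 10 windows of 250 bases before a transcription start. Those of Fasn and Thrsp are printed because these genes had the largest falls in the edgeR fit described below, and that of Acly because its fall was smaller. Capitals mark CCAAT boxes (CCAAT) in Fasn and Thrsp and GC boxes (GGGCGG) in Acly, searched on both strands. All 3 lie on the minus strand, at chr11:120824548-120824797 (Fasn), chr7:97417551-97417800 (Thrsp) and chr11:100528001-100528250 (Acly), and are written 5′ to 3′ along the gene.
Fasn: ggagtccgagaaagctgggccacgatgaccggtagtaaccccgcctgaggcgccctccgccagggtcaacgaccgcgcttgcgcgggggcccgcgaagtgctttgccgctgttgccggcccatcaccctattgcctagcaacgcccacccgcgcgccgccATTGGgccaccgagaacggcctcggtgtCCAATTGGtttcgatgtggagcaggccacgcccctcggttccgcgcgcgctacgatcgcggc
Thrsp: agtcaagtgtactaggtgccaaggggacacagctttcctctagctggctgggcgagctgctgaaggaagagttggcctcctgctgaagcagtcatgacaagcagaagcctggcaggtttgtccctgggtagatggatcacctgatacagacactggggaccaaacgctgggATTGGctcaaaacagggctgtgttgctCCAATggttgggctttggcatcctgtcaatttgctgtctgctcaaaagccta
Acly: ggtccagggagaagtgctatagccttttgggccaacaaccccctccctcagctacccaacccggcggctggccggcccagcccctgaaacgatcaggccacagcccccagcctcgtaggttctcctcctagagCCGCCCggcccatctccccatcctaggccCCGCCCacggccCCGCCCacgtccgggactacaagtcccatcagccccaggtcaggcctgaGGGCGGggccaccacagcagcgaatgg
The Fasn window held 3 CCAAT boxes, which begin 90, 62 and 59 bases before the start site, the last pair overlapping on opposite strands. The Thrsp window held 2, which begin 79 and 52 bases before it, and the Acly window held 4 GC boxes and no CCAAT box. A CCAAT box was found in 5 of the 10 windows and in 33.8% of 32851 windows of the same length, and a GC box in 3 of the 10 and in 32.7% of all windows. The E-box CACGTG occurred in 1 of the 10, a window of Mlxipl, and in 6.02% of all windows. The sterol element TCACNCCAC also occurred in 1, the other Mlxipl window, and in 1.05% of all windows. The DR1 repeat of nuclear receptors was in none of the 10 and in 0.0335% of all windows. These matches are descriptions of the letters only.

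Of the 10 genes, 9 fell in tumours and none rose by edgeR's two-sided quasi-likelihood test at an adjusted p below 0.05 (Benjamini-Hochberg, 20101 genes), while Scd2 did not pass. Of all genes tested, 8.19% were called lower. The median log2 fold change was -3.83 over the 10 genes and 0.17 over all tested genes. In the 9 called genes every tumour lay below every gland, which was so for 7.5% of all tested genes, while 6.54% lay above every gland. None rose by DESeq2, by limma-voom or at an unadjusted p below 0.05 either. Together the 10 genes took 0.0627% to 0.345% of all counts in the tumours. In glands 1 to 4 they took 3.48%, 2.68%, 3.06% and 0.285%, so that tumour 6 exceeded gland 4 on this unscaled share. All other levels below are in CPM, counts per 1000000 counts of the library, with totals scaled by TMM factors.

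**Figure D1:**
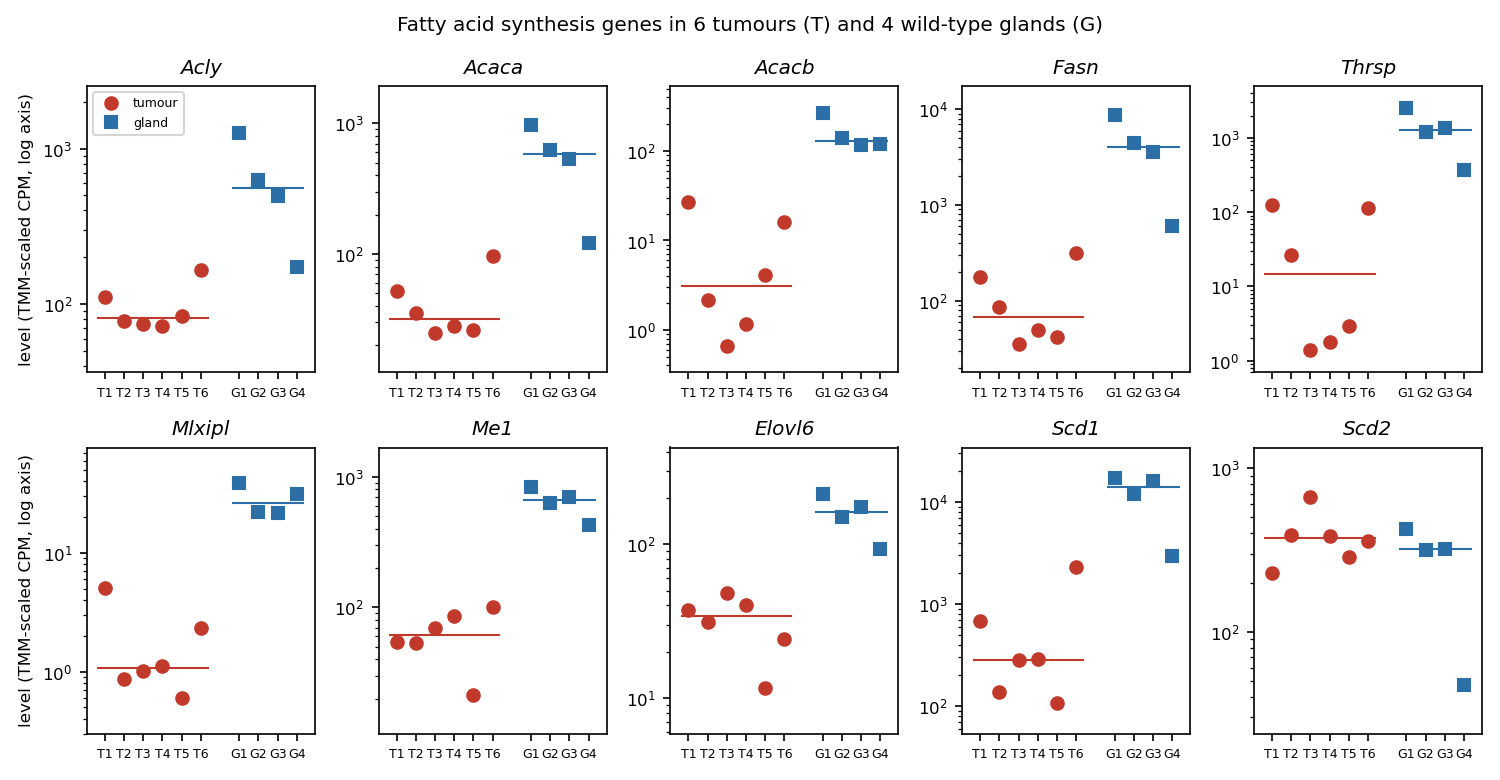
Level of each of the 10 genes in every library, in TMM-scaled CPM on log axes, with tumours T1 to T6 as circles, glands G1 to G4 as squares and lines at the group medians. In 9 panels all circles lie below all squares, and in the Scd2 panel the groups overlap, with G4 lowest at 47.6 CPM.

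Fbxw7 itself was at 33.3, 47.3, 15.1, 27.8, 28.6 and 33.1 CPM in tumours 1 to 6, against 14.3, 17.8, 18.4 and 83.6 CPM in glands 1 to 4. The groups overlapped (log2 difference -0.12 ± 0.51, adjusted p = 0.888, edgeR), and counts over the whole gene do not show whether the excised part is missing, so this does not check the labels. Some libraries stood apart. Total counts were 34865913 to 48325044 in the tumours and 13723065 to 48353114 in the glands. Salivary markers took 50.3% of all counts in tumour 1 and 18.6% in tumour 6, against 0.00266% to 0.0388% in tumours 2 to 5 and 0.00902% to 0.0528% in the glands. Skeletal muscle markers took 9.02% of the counts of gland 4 and mitochondrial transcripts 37.5%, against at most 1.69% and 14.02% in the other libraries. Without tumours 1 and 6 the count of genes that fell was again 9 of 10, without gland 4 it was 9, and without all 3 it was 9. With gland 4 as the only gland none of the 10 passed in edgeR, 6 were at an unadjusted p below 0.05, and the log2 values of the 9 genes were -4.13 to -0.76. With age as a covariate 9 of 10 were called lower, at log2 fold changes of -4.40 to -2.02. Among the glands age sets only gland 4, at 40 weeks, apart from glands 1 to 3, at 20 weeks. Its age and its tissue make-up therefore cannot be told apart.

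The entry steps fell by unequal amounts. Acly, the enzyme that splits citrate to acetyl-CoA, lay between 72.8 and 167 CPM in tumours with a median of 81.4 CPM, and in glands 1 to 4 it was at 1263, 626, 498 and 172 CPM. Tumour 6, the highest tumour, came close to gland 4, the lowest gland, and the log2 fold change was -2.71 ± 0.49 (SE; adjusted p = 0.00817, edgeR). Acaca, the acetyl-CoA carboxylase of the cytosol that makes malonyl-CoA for synthesis, lay between 24.8 and 96.5 CPM in tumours with a median of 31.8 CPM. In the glands it was at 964, 629, 532 and 120.4 CPM. Its fall was 12.8-fold (log2 fold change -3.68 ± 0.58, adjusted p = 0.00464, edgeR), and the log2 value was -4.31 without tumours 1 and 6. Acacb, the carboxylase at the mitochondrial membrane whose malonyl-CoA restrains fatty acid oxidation, was at 26.7 CPM in tumour 1 and 16.2 CPM in tumour 6, and at 0.668 to 4.11 CPM in tumours 2 to 5. The glands had 268, 141, 117 and 119.9 CPM, far above every tumour. The log2 fold change of Acacb was -4.26 ± 0.95 (adjusted p = 0.0168, edgeR), and the call was lost without gland 1 (adjusted p = 0.0512). It was -5.07 without tumour 1, -6.32 without tumours 1 and 6 and -5.56 by limma-voom.

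Fasn, the synthase that assembles palmitate, showed the largest fall of the 10 in the edgeR fit, but not in every alternative. By limma-voom Thrsp and Acacb fell more (log2 fold changes of -6.86 and -5.56, against -5.12 for Fasn). Thrsp also fell more than Fasn without tumour 1 (-5.54 and -5.39), without tumours 1 and 6 (-7.40 and -6.37) and without these and gland 4 (-7.73 and -6.80). Against gland 4 alone Mlxipl, Acacb, Thrsp and Me1 had lower log2 values (-4.13, -3.88, -3.08 and -2.66) than Fasn (-2.34). Fasn was at 178, 86.1, 35.7, 49.5, 41.9 and 313 CPM in tumours 1 to 6, against 8748, 4475, 3609 and 608 CPM in glands 1 to 4. Tumours 6 and 1 were the highest tumours, and gland 4 lay nearer to them than to gland 1 in CPM. The fall was 37.2-fold (log2 fold change -5.22 ± 0.88, adjusted p = 0.00611, edgeR), and over the fits without 1 library the log2 value was -5.89 (without tumour 6) to -4.64 (without gland 1), called in all 10. With age as a covariate it was -4.40. Thrsp, also called Spot 14, is a small lipogenic protein that mice need for full milk fat synthesis. It was at 124, 26.6, 1.39, 1.79, 2.94 and 115 CPM in tumours 1 to 6, against 2499.6, 1213, 1355 and 372 CPM in the glands. As a ratio of the highest to the lowest tumour, no other gene of the 10 spread so widely. Its log2 fold change was -4.91 ± 1.29 (adjusted p = 0.0298, edgeR). It did not pass when gland 1, gland 2, gland 3 or tumour 2 was left out (adjusted p = 0.0780, 0.0574, 0.0540 and 0.0600), and the log2 value was -5.59 without tumour 6.

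Mlxipl, the gene of the glucose-sensing activator ChREBP, was low throughout, with 32 to 84 reads in each tumour. In tumours it lay between 0.595 and 5.07 CPM with a median of 1.06 CPM, and in the glands it was at 38.7, 21.9, 21.8 and 31.1 CPM. Gland 4, the lowest gland for 8 of the other 9 genes, was the second highest here. The log2 fold change was -3.98 ± 0.59 (adjusted p = 0.00397, edgeR), -4.60 without tumour 1 and -4.99 without tumours 1 and 6. Me1, the cytosolic malic enzyme that makes NADPH, lay between 21.5 and 101 CPM in tumours with a median of 61.6 CPM. The glands had 834, 626, 699 and 427 CPM, so that here gland 4 stood well clear of the tumours. Me1 fell 10.1-fold, with the smallest adjusted p of the 10 (log2 fold change -3.33 ± 0.42, adjusted p = 0.00224, edgeR).

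The modifying enzymes diverged. Elovl6, which lengthens palmitate to stearate, was at 37.5, 31.2, 47.96, 40.3, 11.7 and 24.1 CPM in tumours 1 to 6, against 213, 149, 174 and 93.6 CPM in glands 1 to 4. Tumours 3 and 4 were the highest tumours and tumour 6 the second lowest, unlike the order seen for Fasn. This was the smallest fall among the 9 called genes, 4.90-fold (log2 fold change -2.29 ± 0.38, adjusted p = 0.00589, edgeR). Scd1, the main stearoyl-CoA desaturase of fat cells and sebaceous glands, was at 681, 137, 280.05, 292, 107 and 2294 CPM in tumours 1 to 6. In glands 1 to 4 it was at 17055, 12040, 16073 and 2934 CPM, which made it the gene with the most counts of the 10 in every gland. Tumour 6 stood far above the other tumours and just below gland 4. The log2 fold change of Scd1 was -4.25 ± 0.98 (adjusted p = 0.0186, edgeR), -5.42 without tumour 6, -5.90 without tumours 1 and 6 and -3.55 with age as a covariate, and the call was lost without gland 1 (adjusted p = 0.0503).

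Scd2, the desaturase with a wider range of tissues, did not pass the test. It was at 229, 388, 668, 385, 287 and 361 CPM in tumours 1 to 6, against 425, 318, 322 and 47.6 CPM in glands 1 to 4. Gland 4 was the lowest library, and tumour 3 the only tumour above every gland. The log2 difference was 0.47 ± 0.53 (adjusted p = 0.540, edgeR), 0.07 without gland 4 and 3.11 against gland 4 alone, so the size of any difference rests on that library. The ratio of Scd1 to Scd2 counts was 2.97, 0.354, 0.419, 0.759, 0.372 and 6.36 in tumours 1 to 6, against 40.1, 37.8, 49.9 and 61.6 in glands 1 to 4. The mean log2 ratio was -0.06 ± 1.77 in tumours and 5.54 ± 0.32 in glands (SD, n = 6 and 4), a difference of -5.59 that is given as a description, since the pair was chosen with its values known. Scd1, Scd2, Scd3 and Scd4 are close relatives in sequence, and the sources used here do not state how reads shared among them were divided.

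Divided by the length of the principal GENCODE transcript, levels can be ordered between genes. In CPM per kb, Scd2 had the highest median of the 10 in tumours, at 68.4 (range 42.0 to 123), ahead of Scd1 at 59.2 (22.1 to 475), and these ranges overlap. Me1 and Acly followed at medians of 18.7 and 18.5, and their ranges also overlap. In glands the order by median was Scd1 at 2909, Thrsp at 1006, Fasn at 402, Me1 at 201 and Acly at 128, with Scd2 seventh at 58.7 (8.73 to 77.9). Thrsp and Fasn overlapped in range, 291 to 1957 and 60.4 to 870.4, as did Me1 and Acly. Acacb and Mlxipl were the lowest in both groups.

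Marker genes of fat cells and of luminal epithelium moved with these differences and in opposite directions. All 13 adipocyte markers fell, with a median log2 fold change of -6.10, and 8 of 10 luminal markers rose while the other 2 did not pass (median 2.21). Among all tested genes 8.19% were called lower and 6.89% higher. The adipocyte median was -7.34 without tumour 6, -9.18 without tumours 1 and 6, -7.87 by limma-voom and -3.11 against gland 4 alone. Fabp4, a fatty acid carrier of fat cells, averaged 191 ± 261 CPM in tumours and 7093 ± 3945 CPM in glands (SD, n = 6 and 4). Epcam, an epithelial adhesion molecule, averaged 589 ± 398 CPM in tumours and 60.8 ± 12.1 CPM in glands. The adipocyte markers summed to 817, 78.3, 44.2, 35.1, 167 and 1341 CPM in tumours 1 to 6, against 28818, 17716, 19914 and 4664 CPM in glands 1 to 4. No adipocyte marker was at 0 in all tumours, but the leptin gene Lep was at 0 in tumour 4 and at no more than 0.186 CPM in tumours 2, 3 and 5. Fewer fat cells in a tumour and less RNA of these genes per fat cell cannot be told apart in bulk tissue.

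**Figure D2:**
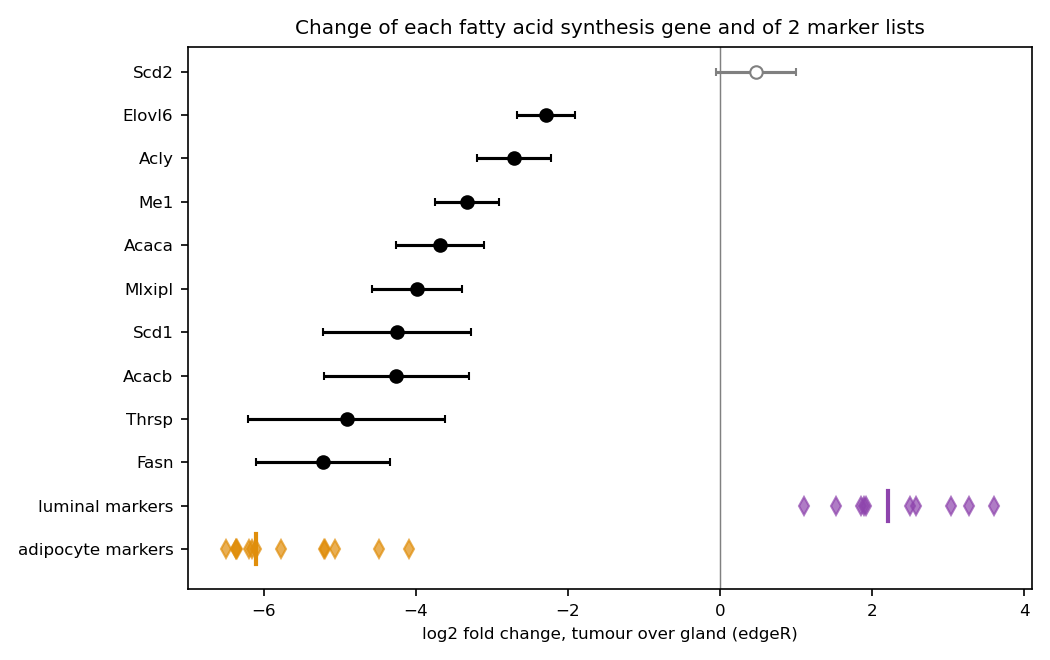
Log2 fold change of each gene, tumour over gland, with bars of 1 standard error and a filled point where the gene was called, above diamonds for the single luminal and adipocyte markers with a line at each list's median. The adipocyte markers spread from -6.49 to -4.09, a range that holds Fasn, Thrsp, Acacb and Scd1 and leaves Mlxipl, Acaca, Me1, Acly, Elovl6 and Scd2 to its right.

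The fall of 4 genes was of the size seen in single adipocyte markers. Fasn, Thrsp, Acacb and Scd1 had log2 fold changes within the range of those markers, -6.49 to -4.09. The other 5 genes that fell did so by less than any adipocyte marker, with log2 fold changes of -3.98 (Mlxipl), -3.68 (Acaca), -3.33 (Me1), -2.71 (Acly) and -2.29 (Elovl6). These are descriptions of point estimates whose standard errors reach 1.29, and they rest on tumours 1 and 6. Without these tumours the adipocyte median was -9.18, against -7.40 for Thrsp, -6.37 for Fasn, -6.32 for Acacb and -5.90 for Scd1. Whether the loss of fat-cell RNA accounts for any of the falls was not tested.

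Levels were also set against the adipocyte marker level of the same library, the geometric mean of CPM + 1 over the 13 markers. That level was 25.5, 3.06, 2.19, 2.31, 4.32 and 48.1 in tumours 1 to 6 and 1136, 691, 718 and 123 in glands 1 to 4. The added 1 sets a floor under this level, and 7, 10, 8 and 4 of the 13 markers were below 1 CPM in tumours 2 to 5, so the sizes of these ratios in those tumours depend on it. Per unit of the level, Acaca, Acly, Scd1 and Scd2 were higher in every tumour than in any gland, as were 78% of all tested genes, and the other 6 overlapped. None of the 10 was lower in every tumour, as were 0.0597% of all tested genes. With 0.1 added in place of 1, the same 4 genes were higher in every tumour, as were 78.9% of all tested genes. With the plain sum of the 13 markers, Acaca, Acly and Scd2 were, as were 82.9% of all tested genes, and Scd1 overlapped.

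Tumours 1 and 6, where no marker was below 1 CPM, can be set beside the glands with little effect of the added 1. Per marker level, Fasn was at 6.98 and 6.50 in tumours 1 and 6, inside its range of 4.96 to 7.70 in glands. Scd1 was at 26.7 and 47.6 in these tumours, against 15.0 to 23.9 in glands. Thrsp was at 4.86 and 2.39 in these tumours, against 1.76 to 3.03 in glands. Scd2 was at 8.99 and 7.49 in these tumours, against 0.374 to 0.461 in glands. In tumours 3, 4 and 5 Thrsp lay below every gland with 1 added and with the plain sum, and with 0.1 added it did so in tumours 3 and 5. Salivary markers took 50.3% and 18.6% of counts in tumours 1 and 6, and milk genes summed to 33787 CPM in tumour 6. The part of these tissues in the ratios was not tested.

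Set against the luminal marker level computed in the same way, 9 of the 10 genes were lower in every tumour than in any gland, as were 49.7% of all tested genes, and Scd2 overlapped, while 0.488% of all tested genes were higher in every tumour. Per luminal marker, Scd2 was at 1.71 to 3.90 in tumours, against 8.81, 8.24, 10.8 and 1.17 in glands 1 to 4. Glands 1 to 3 thus lay above every tumour, and the overlap rests on gland 4. For Fasn the medians were 0.367 in tumours and 118 in glands, for Elovl6 0.165 and 4.14. Among the tumours Scd2 per luminal marker spread 2.28-fold, less than any other of the 10 genes, where the spread was 3.31-fold or more.

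**Figure D3:**
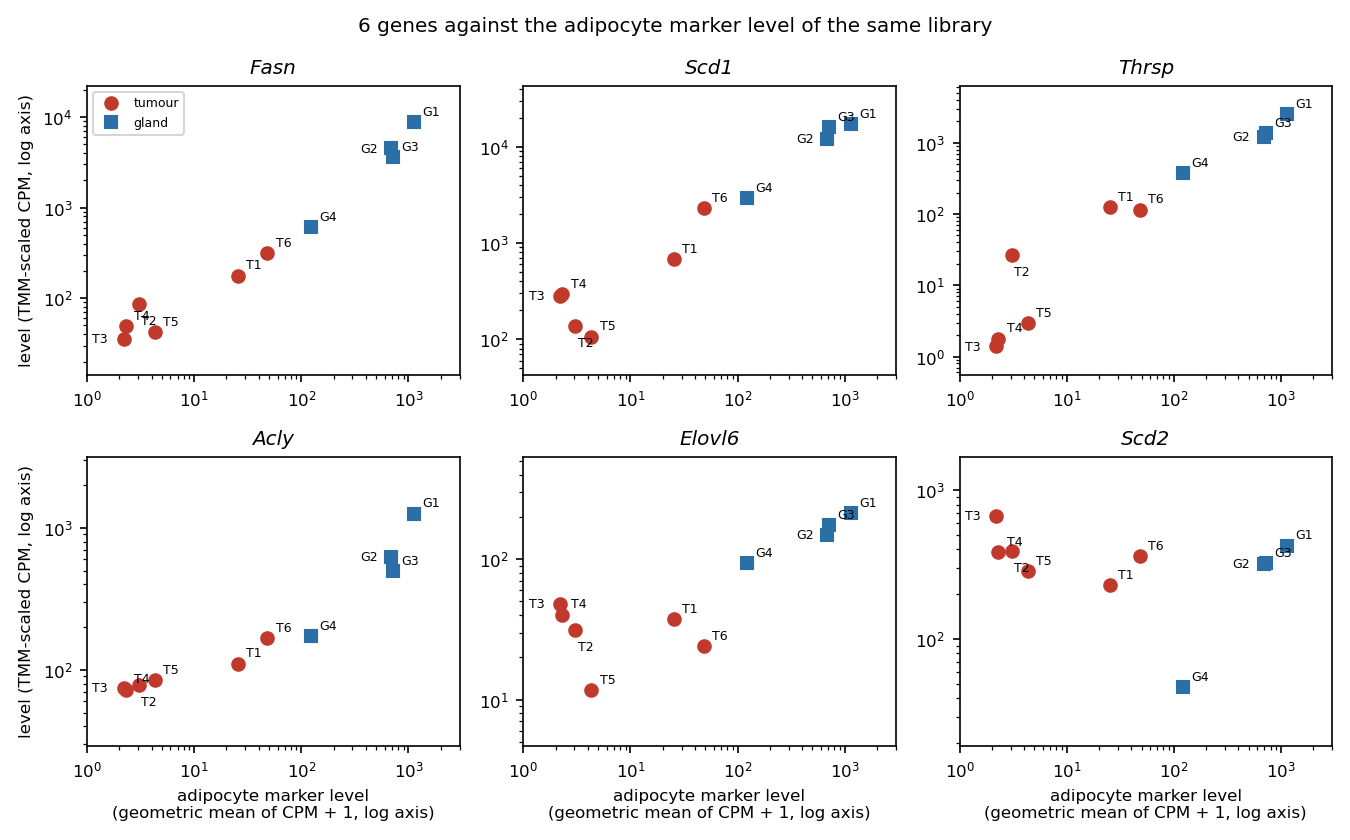
TMM-scaled CPM of 6 genes against the adipocyte marker level of the same library, both on log axes, with tumours as circles and glands as squares. Fasn, Scd1 and Thrsp were high in T1, T6 and the glands, where the marker level was 25.5 or more, while Elovl6 and Scd2 in T3 and T4, with the 2 lowest marker levels, were above T1 and T6.

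The profile of each gene over the libraries was compared with the median profile of 11 cell type lists by the root mean square distance of centred log2(CPM + 1) values, a description with no test. Over all 10 libraries, Fasn, Scd1, Thrsp and Acacb lay nearest to adipocyte markers, at distances of 0.88, 1.05, 1.00 and 1.11, against 3.77, 3.63, 4.57 and 3.65 from luminal markers. Fibroblast markers came second for all 4, at 1.63, 1.49, 2.42 and 1.39. Over the 6 tumours alone these 4 were again nearest to adipocyte markers, at 0.72, 0.83, 1.26 and 0.57. Brown fat markers were close behind for Fasn, Scd1 and Acacb, at 0.86, 0.94 and 0.75, and skeletal muscle markers came second for Thrsp, at 1.67. In tumours 2 to 5 between 4 and 10 of the 13 adipocyte markers were below 1 CPM. Me1, Elovl6 and Scd2 lay nearest to luminal markers over the tumours alone, at 0.54, 0.64 and 0.42, against 1.60, 1.85 and 1.95 from adipocyte markers. Values were not scaled for spread, so a gene and a list that both vary little lie close together. The luminal marker level was 102 to 225 over the tumours. Over all 10 libraries Me1 was nearest to fibroblast, Elovl6 to endothelial and Scd2 to sebaceous markers, a list that includes its relative Scd3. For Scd2 luminal markers were a close second, at 1.04 against 0.98, with adipocyte markers far off at 3.86. With 0.1 CPM added in place of 1, Scd2 was at 1.06 from luminal and 1.04 from sebaceous markers, so their order is not settled. Acaca and Acly were nearest to fibroblast markers over 10 libraries and to macrophage markers over the tumours, and Mlxipl to brown fat markers in both. Endothelial markers came second for Acaca and Acly each time. Over 10 libraries they were at 1.19 against 0.93 (Acaca) and 0.81 against 0.78 (Acly). Over the tumours they were at 0.634 against 0.631 and 0.563 against 0.539, near ties that do not settle the order. With a pseudocount of 0.1 CPM, Scd1 moved to fibroblast markers, at 1.42 against 1.66 from adipocyte markers. Fasn and Acacb then stayed nearest to adipocyte markers, at 1.56 and 1.43, but with fibroblast markers close, at 1.59 and 1.61.

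By the same distance, the genes most like each of the 10 were sought among 9106 others with a mean of at least 10 CPM. Fasn was nearest to Adig and Adrb3, at 0.37 and 0.38, Scd1 to Adrb3 and Pparg, at 0.57 and 0.60, and Thrsp to Gpd1 and Lipe, at 0.76 and 0.83. Of these, all but Adig are on the adipocyte list. Adrb3 was at 0 CPM in tumours 2 to 4 and at 0.0930 CPM in tumour 5, and Pparg at 0.260 to 0.595 CPM in tumours 2 to 5. Both reached the mean of 10 CPM through the glands, and the added 1 sets a floor under them, so their distances depend on it. No other pseudocount was tried for this search. Acacb was nearest to Adhfe1 and the pyruvate carboxylase gene Pcx, Mlxipl to Lpin1 and Gpam of glycerolipid assembly, and Acly to Sik2 and the citrate carrier gene Slc25a1. Acaca was nearest to Pygl and Slc1a5, Me1 to Itga7, Elovl6 to Mturn and Peli2, and Scd2 to Ptbp1 and Ifitm2. Adrb3, the nearest to Scd1, changed by -5.77 on the log2 scale, while Ptbp1, the nearest to Scd2, had a log2 difference of 0.88.

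Other genes of lipid metabolism, 78 in 7 lists, fell more often than they rose. Of 74 tested, 27 fell and 3 rose, with a median log2 fold change of -0.98, against 8.19% called lower and 6.89% called higher among all genes. The lists were written with earlier results of these data known. Of 12 regulators 3 fell and none rose. Among them Nr1h3, the liver X receptor alpha gene, changed by -3.19 ± 0.46 and Mid1ip1, a relative of Thrsp, by -1.43 ± 0.37 (SE; adjusted p = 0.00374 and 0.0264, edgeR). The Mid1ip1 call was lost without gland 1 or 3 and with age as a covariate (adjusted p up to 0.103 without 1 library). Srebf1, the gene of the sterol-element binding activator of lipogenesis, averaged 98.3 ± 43.2 CPM in tumours and 167 ± 106 CPM in glands (SD, n = 6 and 4), a log2 difference of -0.77 ± 0.46 that did not pass (adjusted p = 0.258, edgeR). Against gland 4 alone that difference was 0.85.

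Of 10 genes that supply acetyl-CoA and NADPH, 6 fell and none rose. Slc25a1, the mitochondrial citrate carrier, changed by -3.10 ± 0.55 and Acss2, which makes acetyl-CoA from acetate, by -2.22 ± 0.36 (SE; adjusted p = 0.00749 and 0.00552, edgeR). Of 13 tested genes of glycerolipid assembly 8 fell and none rose. Gpam, which starts glycerolipid synthesis, averaged 19.3 ± 10.7 CPM in tumours and 248 ± 76.4 CPM in glands, a log2 fold change of -3.68 ± 0.43 (adjusted p = 0.00176, edgeR). It was the only 1 of 14 related genes followed through the alternatives that passed against gland 4 alone. The acyltransferase gene Agpat2 changed by -3.91 ± 0.51 (adjusted p = 0.00252, edgeR). Of 11 genes of uptake and activation 5 fell and none rose, among them the transporter gene Slc27a1 (-3.75 ± 0.56) and the acyl-CoA synthetase gene Acsl1 (-4.42 ± 0.74; adjusted p = 0.00397 and 0.00592, edgeR). Of 12 genes of malonyl-CoA control and fatty acid oxidation 5 fell and none rose, among them Cpt2 (-2.28 ± 0.28) and Acadm (-2.33 ± 0.34; adjusted p = 0.00202 and 0.00381, edgeR).

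**Figure D4:**
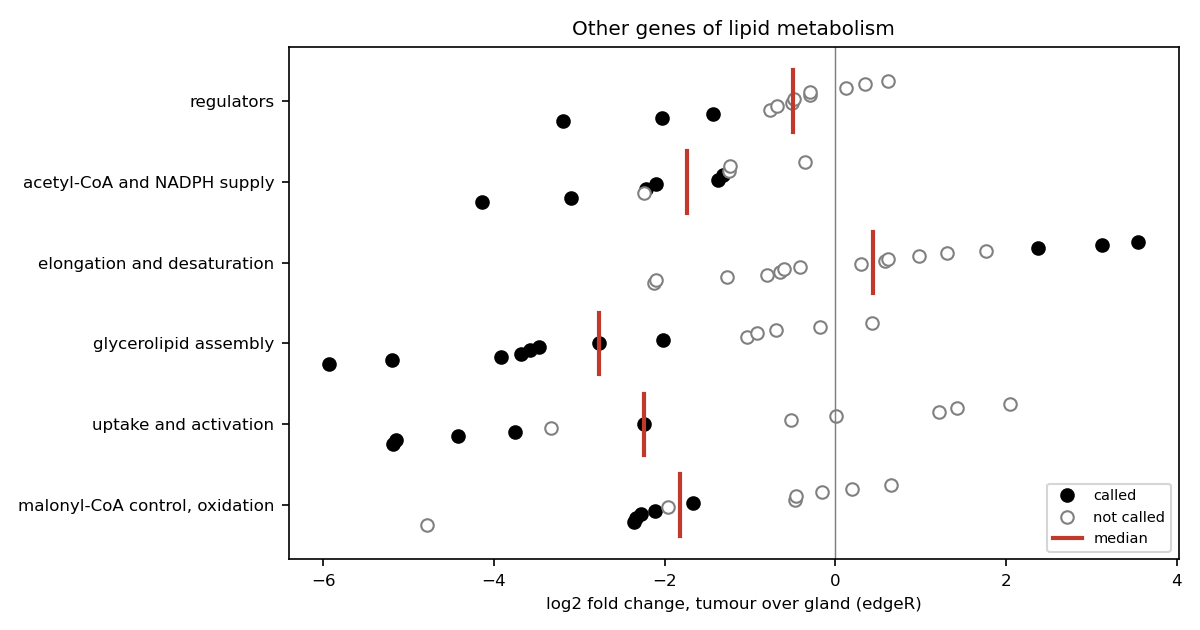
Log2 fold change, tumour over gland, of the tested genes of 6 lists of lipid metabolism, with filled points for called genes and a line at each list's median. Filled points lie left of 0 in 5 lists (3, 6, 8, 5 and 5 genes), and the 3 filled points of elongation and desaturation lie right of 0.

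Of 16 tested genes of elongation and desaturation other than Elovl6, Scd1 and Scd2, 3 rose, none fell and 13 did not pass (median log2 fold change 0.44). Calls of 2 of the 3, Scd3 and Fads2, were lost without any 1 gland. Among those that did not pass, log2 differences reached -2.12 (Fads3) and 1.77 (Elovl4), both named after their values were seen. Elovl7, an elongase of long saturated chains, was at 21.5, 32.0, 66.9, 31.2, 50.1 and 36.5 CPM in tumours 1 to 6, against 3.08, 3.43, 3.12 and 3.94 CPM in glands 1 to 4. Every tumour was more than 5 times above the highest gland, and the log2 fold change was 3.55 ± 0.37 (adjusted p = 0.00164, edgeR), called in all 10 fits without 1 library. The call of this elongase stands beside the fall of Elovl6 in the same libraries. Scd3, a desaturase known from sebaceous glands and skin, was at 1.66 to 21.1 CPM in tumours with 2 libraries above 10 CPM, and at 0.699 to 1.48 CPM in glands. Its log2 fold change was 3.13 ± 0.75 (adjusted p = 0.0220, edgeR), and the call was lost without any 1 gland and with limma-voom (adjusted p up to 0.0651 without 1 library). Fads2, the delta-6 desaturase gene and the third to rise, was at 10.2 CPM in tumour 1 and at 53.1 to 158 CPM in tumours 2 to 6, against 24.2, 18.9, 14.8 and 10.5 CPM in the glands. Tumour 1 lay below every gland. The log2 fold change was 2.37 ± 0.63 (adjusted p = 0.0300, edgeR), and Fads2 no longer passed either when tumour 2 was left out, by limma-voom, or in the fit with age (adjusted p up to 0.0808 without 1 library). Olah, the thioesterase that releases medium-chain fatty acids in milk-secreting epithelium, was at 21.4 CPM in tumour 6 and at no more than 0.206 CPM in tumours 1 to 5, against at most 0.228 CPM in the glands. It was too low in most libraries to be tested.

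Milk genes set tumour 6 apart as well. The 10 milk and alveolar genes summed to 33787 CPM in tumour 6 and 548 to 7570 CPM in tumours 1 to 5, against 65.5 to 843 CPM in the glands. Of these genes 5 of 10 rose and none fell, against 6.89% called higher among all tested genes. Csn2, the beta-casein gene, was at 13600 CPM in tumour 6 and at 2.10 to 528 CPM in the other tumours, against at most 2.51 CPM in the glands. The same tumour was the highest of the 6 for Acly, Acaca, Fasn, Me1 and Scd1, and also for summed adipocyte markers (1341 CPM). The part of either cell type in the values of tumour 6 was not tested. Tumour 3 had the lowest Acaca, Acacb, Fasn and Thrsp of the tumours. Its milk genes were mixed, with 5419 CPM of the casein gene Csn1s1 but 2.10 CPM of Csn2, the lowest Csn2 of the tumours.

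Markers of the remaining cell types were counted in the same fit, where 6.89% of all tested genes were called higher and 8.19% lower. Brown fat markers had 2 of 7 lower and none higher (sums of 6.73 to 226 CPM in tumours and 99.7 to 1846 CPM in glands), and Ucp1 was at 0 in tumours 3, 4 and 5. Sebaceous markers had 1 higher and 1 lower of 5 tested, with sums of 14.6 to 192 CPM in tumours and 34.3 to 36.2 CPM in glands. Basal markers had 2 of 8 higher, fibroblast markers 2 of 8 lower and endothelial markers 3 of 6 lower. Macrophage markers had 1 of 6 higher, Cd14, with a list median log2 fold change of -0.10. Skeletal muscle markers had 8 of 12 lower and salivary markers 2 of 6 tested higher. The part of each in the results above was not tested.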

How the data were processed

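RNA sequencing libraries from polyA RNA of whole tissue (NEBNext Ultra kit, per the labels' protocols) were analysed for 6 tumours and 4 glands; the 3 purified epithelium libraries were left aside. The deposited values are raw counts per gene symbol. Per the submitters' processing notes, mm9, Salmon 1.2.0 and DESeq were used, in roles not stated; strand use and the handling of shared reads are not given in the sources used here. The table holds 0 other per-sample columns.

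The main test was that of edgeR 4.0.16 under R 4.3.3 (filterByExpr, TMM scaling, quasi-likelihood F test, Benjamini-Hochberg adjustment over 20101 genes), after a check on simulated data. Standard errors were derived from the F statistic, as the size of the log2 value over its square root. Alternatives were other scalings, DESeq2 1.42.0, limma-voom (limma 3.58.1), other filters, age as a covariate and libraries left out. Lengths came from GENCODE vM21. The biological coefficient of variation, the common spread between libraries of a group, was 0.707.

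The members and lists were chosen with earlier results of these data known. Named genes were all 10 members, up to 2 called genes in each direction per related list, up to 2 markers of highest mean CPM per cell type list and the 2 nearest profiles per member, of which 1 is not reported here. Fads2, Srebf1, Olah, Lep, Ucp1, Cidea and Dio2 were named after their values were seen.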

Additional observations from a re-analysis of the deposited data

Results flagged for a closer look

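In 20 groups of libraries (10 genes in tumours and in glands), 3 held a library far from the others by Dixon's test, which chance flags in about 1 of 20 groups. Scd1 stood at 2294 CPM in tumour 6, against 107 to 681 CPM in the other tumours. Scd2 stood at 668 CPM in tumour 3, against 229 to 388 CPM in the other tumours. Acacb stood at 268 CPM in gland 1, against 117 to 141 CPM in the other glands.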

How the results depend on the processing

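No paired analysis was possible because the tumours and glands share no replicate number in the labels. Over 20 alternatives and 10 genes, 185 values kept their direction and side of the threshold, 15 lost the call and none reversed. Between 6 and 9 of the 10 genes were called lower in the fits without 1 library, 9 in the other alternatives and 0 against gland 4 alone, a fit that assumes that gland varies like the tumours; none was called higher. Over all genes 3030 were called (1384 higher and 1646 lower), 5252 with DESeq2, 1855 with age as a covariate, 4640 without tumours 1 and 6 and gland 4, 330 against gland 4 alone and 1053 to 3521 without 1 library. With upper-quartile scaling the split was 1809 higher and 1313 lower, with a shift of 0.16 in the median log2 value of all genes, and limma-voom gave 1067 and 2007. Related genes called lower numbered 27, 2 against gland 4 alone and 17 to 29 without 1 library; those called higher numbered 3, 1 with limma-voom, 0 against gland 4 alone and 1 to 5 without 1 library. The related-gene counts under alternatives were added after seeing the data. The cause of these changes was not tested. Low counts limit Mlxipl, with 32 to 84 reads in each tumour, and Acacb, with 27 to 582. The log2 ratio of the tumour to the gland median of Thrsp per adipocyte marker level was -0.37 with 1 added to the markers, 0.18 with 0.1 added and -0.12 with their plain sum, both added after seeing the data.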

Other observations

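The 2 acetyl-CoA carboxylase genes differed in proportion between libraries. The ratio of Acacb to Acaca counts was 0.512, 0.0606, 0.0269, 0.0410, 0.157 and 0.168 in tumours 1 to 6, against 0.278, 0.225, 0.220 and 0.996 in glands 1 to 4, so the groups overlap. Gland 4, with the highest ratio, also had the largest share of skeletal muscle markers, 9.02% of counts against 0.00490% to 1.69% in glands 1 to 3. It had the highest brown fat marker sum too, 1846 CPM, of which Cox8b gave 960 CPM and Cox7a1 558 CPM. Ucp1 of the same list was at 222 CPM in gland 4 and at 211 CPM in gland 1. Not every gene of the list was highest in gland 4. Cidea was at 52.6 CPM there and at 145 CPM in gland 1, and Dio2, at 8.20 CPM, was the lowest of the glands. The rest of the list was highest in gland 4. Tumour 1, with the highest ratio of the tumours, had the highest brown fat sum among them, 226 CPM. The part of muscle or brown fat in these ratios was not tested.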
